A study of Mus musculus with 8 samples.

Results

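Interleukins are secreted signalling proteins, and this account covers the genes for them, for the receptor chains that bind them and for the soluble proteins that block them. The members were all rows of the deposited count table whose gene symbol begins with Il and a digit, which gave 57 genes of 18306. By function, 21 were ligands, 32 receptor chains, 3 soluble inhibitors and 1 (Il4i1, an amino acid oxidase) neither. The cells were C3H10T1/2, an immortal mouse embryo fibroblast line that can be steered toward fat, bone or cartilage. The 4 vehicle libraries (numbered 1 to 4) came from cells given fatty acid-free albumin for 24 h, and the 4 S1P libraries (numbered 5 to 8) from cells given 5 µM sphingosine 1-phosphate (S1P), a lipid that acts on G protein-coupled receptors, for the same time. Cells of both groups had been plated in medium with 10% serum and then kept in medium without serum for 24 h beforehand. Everything was measured in 1 cell line at 1 dose and 1 time, and the labels do not say whether the libraries of a group were separate cultures, so the p-values reflect the spread between these libraries, which may be technical.

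Interleukins act in families that share receptor parts. IL-6 and IL-11 bind their own chains (Il6ra, Il11ra1) and then the common chain gp130, encoded by Il6st, which signals through JAK kinases and STAT3. IL-1, IL-18, IL-33 and the IL-36 group bind a receptor and an accessory chain, mostly Il1rap, that recruit MyD88 and IRAK kinases, and IL-17 cytokines signal through Il17ra with a partner chain. Fibroblasts are known as a source of IL-6 and as responders to IL-1 and IL-17, whereas many other interleukins are made mainly by leukocytes.

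Library totals ran from 13750303 to 13761544 counts. Levels are given as CPM (counts scaled to a common library size, with edgeR's TMM factors), and 3 counts, the limit a count of 0 allows, came to 0.213 to 0.222 CPM, for counting error alone. Fibroblast markers were abundant, from 19.8 CPM for Twist1 to 5380 CPM for Col1a2 on average. Their summed level was 17900 to 24800 CPM in vehicle and 14400 to 19800 CPM in S1P libraries, and none of the 9 was called. Before adjustment, 2 were lower with an edgeR p under 0.05, Col3a1 and Pdgfra, at log2 fold changes of -0.67 and -1.04. In the other direction there was 1, Twist1, at 0.35. Of 11 leukocyte markers, 8 were found, and their summed level was 2.59 to 6.46 CPM in vehicle and 1.60 to 5.48 CPM in S1P libraries. The defining leukocyte genes Ptprc and Cd3e had no counts in any vehicle library and at most 2 in an S1P library, and Emr1 had at most 1 in any library. Other leukocyte markers were higher. Lyz2 was tested and not called, at 1.71 to 5.96 CPM in vehicle and 0.944 to 4.62 CPM in S1P libraries. Cd68 and Csf1r had up to 14 and 11 counts. The endothelial genes Pecam1 and Cdh5 had at most 6 counts, although Tek averaged 43.0 CPM.

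S1P-treated cells had more Il1rn transcript, the IL-1 receptor antagonist, and less of 6 other members: the receptor chains Il23r, Il11ra1, Il6ra and Il17ra, the ligand Il16 and the inhibitor Il18bp. Of the 57 members, 28 had enough counts to be tested, and these 7 passed the edgeR quasi-likelihood test at an adjusted p under 0.05, 1 higher and 6 lower. Over all 11844 tested genes, 8.50% passed, 5.60% higher and 2.90% lower. The number depended on single libraries: without S1P library 7 or 8 only Il23r was called, and without vehicle library 4 the call extended to 10 members, the same 7 with Il6, Il6st and Il13ra2. Calls over all genes moved in the same direction, from 1007 to 559 and 468 without S1P library 7 and 8 and to 1856 without vehicle library 4. The called members made up 25.0% of the tested members, and those called lower made up 21.4%. Il23r and Il33 passed the count filter only through the vehicle libraries, and Il15 and Il18rap only through the S1P libraries. Among the 28, 20 had a log2 fold change (S1P minus vehicle) below 0, against 53.9% of all tested genes, and the median was -0.37 against -0.04 over all tested genes. Before adjustment, 12 members had an edgeR p under 0.05 and were lower, where 11.7% of all tested genes were. The vehicle and S1P values did not overlap for 9 tested members, the 7 called ones with Il6st and Il17d, against 19.1% of all tested genes. In bulk RNA, fewer cells of a kind and less RNA per cell cannot be told apart.

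**Figure D1:**
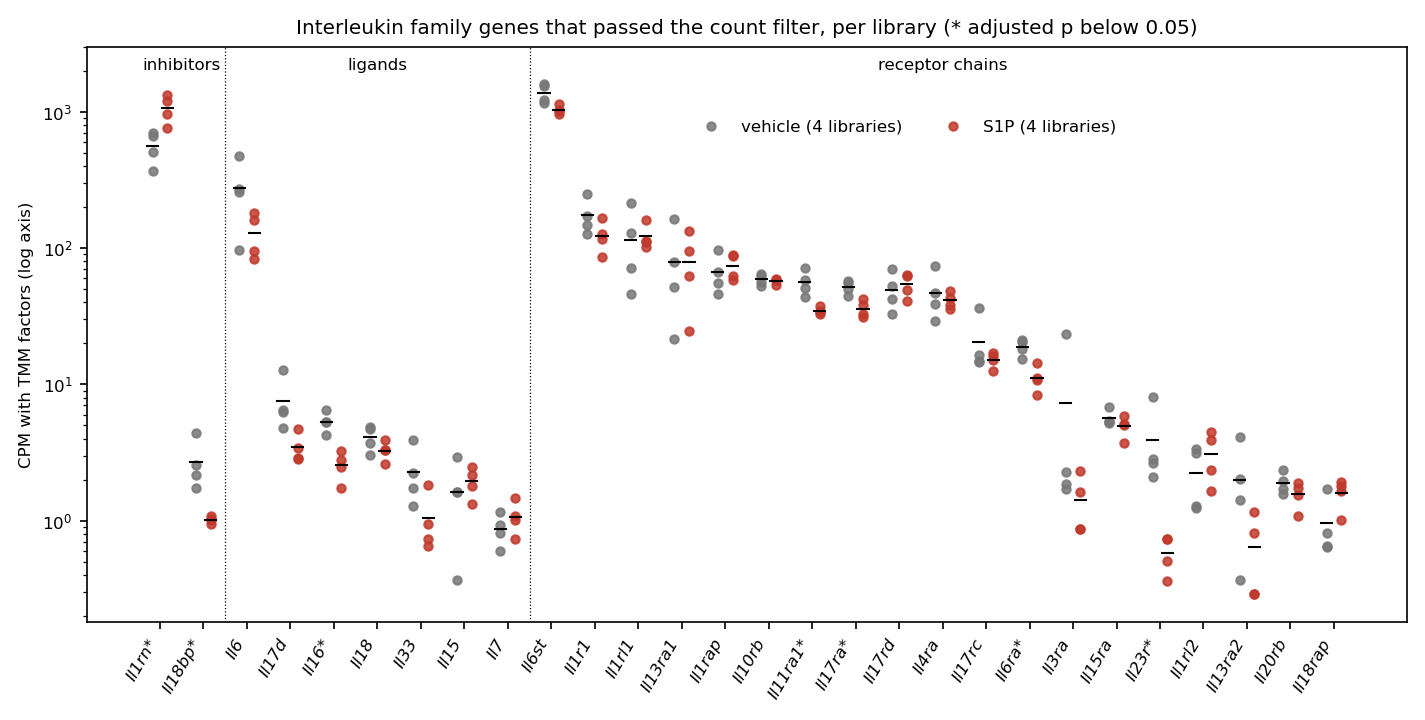
CPM (log axis) of the 28 tested members in each vehicle (grey) and S1P (red) library, grouped as inhibitors, ligands and receptor chains, with short lines at the group means and a star on genes with an adjusted p under 0.05. Il1rn sits higher in all 4 S1P libraries and Il23r lower, while Il13ra1 spreads widely within both groups.

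**Figure D2:**
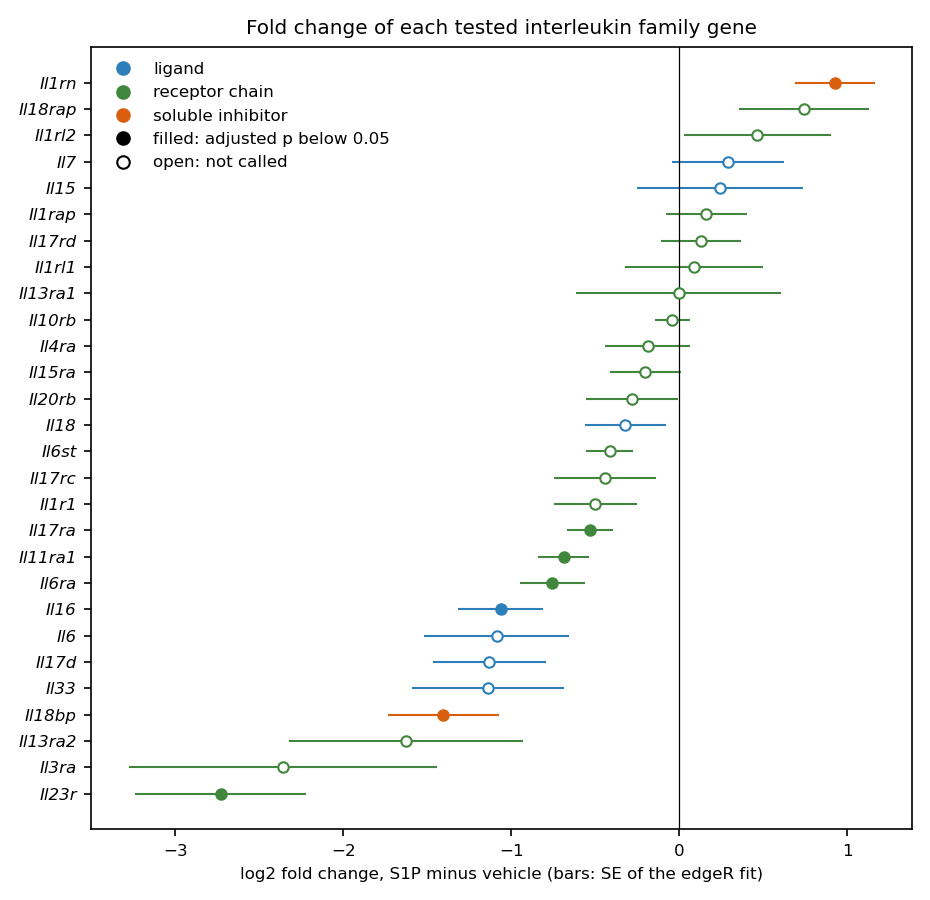
Log2 fold change, S1P minus vehicle, of each tested member with the standard error of the edgeR fit, coloured by role and filled where the adjusted p was under 0.05. Il23r is lowest at -2.73 and Il1rn highest at 0.93.

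The promoters of 3 members are shown because these genes stand for the findings below: Il1rn is the member that rose, Il23r the called member with the greatest fall and Il6 the ligand with the highest level. Each is the stretch from 250 bases before to 50 bases after the most upstream RefSeq start in GRCm38.p6, read 5′ to 3′ on the gene's strand. Capitals mark matches, on either strand, to the NF-kB pattern (GGG and CC with any 5 bases between) or TGANTCA (the AP-1 pattern). Matches to these patterns can overlap, and TTCNNNGAA (STAT) and GGAATG (TEAD) were searched too, with none in these 3 windows. The Il1rn window lies at chr2:24336610-24336909 (plus strand), that of Il23r at chr6:67491806-67492105 (minus strand) and that of Il6 at chr5:30012864-30013163 (plus strand).
Il1rn: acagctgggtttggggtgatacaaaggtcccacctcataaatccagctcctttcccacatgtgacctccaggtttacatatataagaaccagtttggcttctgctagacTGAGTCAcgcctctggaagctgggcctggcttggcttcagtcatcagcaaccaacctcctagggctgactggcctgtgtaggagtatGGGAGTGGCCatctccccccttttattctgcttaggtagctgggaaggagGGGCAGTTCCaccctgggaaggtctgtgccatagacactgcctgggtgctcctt
Il23r: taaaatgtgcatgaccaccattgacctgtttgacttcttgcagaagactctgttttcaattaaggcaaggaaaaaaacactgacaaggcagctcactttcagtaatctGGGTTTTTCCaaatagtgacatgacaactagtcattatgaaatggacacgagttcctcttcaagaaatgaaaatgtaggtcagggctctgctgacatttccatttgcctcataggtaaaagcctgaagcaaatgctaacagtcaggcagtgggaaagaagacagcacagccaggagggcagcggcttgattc
Il6: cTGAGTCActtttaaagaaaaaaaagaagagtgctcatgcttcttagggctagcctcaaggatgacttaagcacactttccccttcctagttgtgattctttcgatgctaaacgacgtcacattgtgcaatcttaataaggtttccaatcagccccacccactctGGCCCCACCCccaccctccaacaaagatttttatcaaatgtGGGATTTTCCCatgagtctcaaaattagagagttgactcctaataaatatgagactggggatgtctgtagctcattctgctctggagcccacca

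The Il1rn window held TGAGTCA from 141 to 135 bases before the start and 2 NF-kB pattern matches. The Il23r window held 1 NF-kB match. In the Il6 window there were 3 NF-kB matches, of which 2 overlap at a shared run near the start, and TGAGTCA at the far upstream end. Promoters were found under the current symbols for 24 of the 28 tested members. A match to the NF-kB pattern was present in 15 of these 24 and in 50.8% of 32851 promoters of the same length. The AP-1 pattern was in 4 of the 24 and in 7.81% of all promoters, the STAT pattern in 1 and 8.30%, and the TEAD pattern in 2 and 14.7%. These are matches of letters only, in promoter windows whose use in these cells was not measured.

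Among the soluble inhibitors, Il1rn and Il18bp moved in opposite directions. Il1rn encodes the IL-1 receptor antagonist, which occupies the IL-1 receptor without signalling (chromosome 2, 24192173 to 24207214 in mm9). Its level was 370.5, 509.5, 698 and 664 CPM in vehicle libraries 1 to 4 and 958, 762, 1205 and 1333 CPM in S1P libraries 5 to 8. Every S1P library was above every vehicle library. The mean rose 1.90-fold, from 560.4 ± 151 to 1065 ± 255 CPM (SD, n = 4 each), with a log2 fold change of 0.93 and an SE of 0.24 (edgeR adjusted p = 0.0432). The call was lost without vehicle library 1 or 2 or S1P library 5, 7 or 8 (edgeR adjusted p of 0.0615 to 0.127) and with another set of scaling factors, those of DESeq2's method, in the same test (edgeR adjusted p = 0.0512), while the log2 fold change stayed between 0.75 and 1.06 whichever library was left out.

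Il18bp, which encodes a secreted protein that captures IL-18, went the other way (chromosome 7, 109163393 to 109166869). It stood at 2.55, 2.15, 4.36 and 1.74 CPM in the vehicle libraries and at 1.08, 0.944, 1.03 and 1.00 CPM in the S1P libraries. The S1P values lay close together and all were below the lowest vehicle value. The fall was 2.65-fold (log2 fold change -1.40, SE 0.33, edgeR adjusted p = 0.0304), and in fits that left out a library it kept its call only without vehicle library 2 or 4 (edgeR adjusted p of 0.0516 to 0.104 in the other 6). A stretch of 281 bases of its span overlaps the more abundant gene Numa1 (161 CPM, log2 fold change -0.16), and how reads there were assigned is not given. Il18 itself, the cytokine that this protein captures, was at 4.90, 4.67, 3.70 and 3.05 CPM in vehicle and 2.60, 3.27, 3.89 and 3.30 CPM after S1P, with overlapping groups (edgeR adjusted p = 0.431). Il1f5, the IL-36 receptor antagonist, had at most 2 counts in any library.

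The IL-6 family held 2 of the 6 members that fell, both of them binding chains. Il6ra, the chain that binds IL-6 (chromosome 3, 89673046 to 89717284), was at 15.4, 20.3, 21.3 and 18.1 CPM in vehicle and at 14.4, 10.7, 11.1 and 8.33 CPM after S1P. The groups did not overlap, although vehicle library 1 and S1P library 5 came within about 1 CPM of each other. The fall was 1.69-fold (log2 fold change -0.76, SE 0.19, edgeR adjusted p = 0.0432). The call held without vehicle library 1 or 4 or S1P library 5 and was lost in the other 5 fits that left out a library (edgeR adjusted p of 0.0896 to 0.136). It was also lost with all 8 libraries when no count filter was used (edgeR adjusted p = 0.0549).

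Il11ra1, the chain that binds IL-11 (chromosome 4, 41646821 to 41716547), was at 58.4, 51.0, 43.8 and 71.3 CPM in vehicle and at 37.8, 34.3, 33.1 and 34.2 CPM in S1P libraries, again with no overlap. It fell 1.61-fold (log2 fold change -0.69, SE 0.15, edgeR adjusted p = 0.0244) and lost the call without vehicle library 1 or S1P library 6, 7 or 8 (edgeR adjusted p of 0.0512 to 0.0859). Without vehicle library 4 the log2 fold change was -0.55 (edgeR adjusted p = 0.0127). The span of Il11ra1 overlaps other tested genes, among them Dctn3, Galt and 2810432D09Rik, whose log2 fold changes were -0.20, -0.74 and -0.45, with no call for these 3. Mouse chromosome 4 also carries near-identical copies of this receptor gene, so reads could have been divided among them, and the value is uncertain to that extent. The ligand Il11 had at most 5 counts in any library.

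Il6, the cytokine itself (chromosome 5, 30339501 to 30346708), did not pass the test. It was at 274, 257, 477 and 97.6 CPM in vehicle libraries 1 to 4 and at 179.9, 82.7, 162 and 95.3 CPM in S1P libraries 5 to 8. Vehicle library 4 lay inside the S1P range, and vehicle library 3 was the highest of the 8. The means were 276 ± 155 and 129.9 ± 48.1 CPM, with a log2 fold change of -1.09 and an SE of 0.43 (edgeR adjusted p = 0.159). Without vehicle library 4 the log2 fold change was -1.37 and the gene was called (edgeR adjusted p = 0.0314), as it was by DESeq2 (adjusted p = 0.0492). EdgeR also called Il6 with 1 surrogate variable (adjusted p = 0.0285) and with vehicle library 4 and S1P library 5 both left out (adjusted p = 0.0215). Limma-voom did not (adjusted p = 0.218), nor did edgeR with no count filter (adjusted p = 0.244). Without vehicle library 3 the log2 fold change was -0.69 (edgeR adjusted p = 0.292).

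Il6st, which encodes the shared chain gp130 (chromosome 13, 113265016 to 113297268), was the receptor chain with the highest level per kilobase of exon. It was at 1234, 1595, 1556 and 1158 CPM in vehicle and at 1037, 1011, 1141 and 969 CPM after S1P. No S1P library reached the lowest vehicle library, though S1P library 7 and vehicle library 4 nearly met. The log2 fold change of -0.41 (SE 0.14) did not pass (edgeR adjusted p = 0.103), and it passed without vehicle library 4 (edgeR adjusted p = 0.0294) and with DESeq2 (adjusted p = 0.0177). Limma-voom did not call Il6st, and edgeR with 1 surrogate variable did. All 4 tested IL-6 family members thus had a negative log2 fold change, with a median of -0.72, and Il31ra, which works with the oncostatin M receptor, was not tested at 0 to 2 counts in vehicle and 3 to 5 counts in S1P libraries. Il31ra was picked for mention after its values were seen.

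Il23r, which encodes the IL-23-binding chain (chromosome 6, 67372726 to 67442049), showed the greatest called fall of any member and was the only member called in all 8 fits that left out a library. Its level was 2.63, 2.82, 8.06 and 2.10 CPM in vehicle and 0.505, 0.726, 0.734 and 0.359 CPM after S1P, or 29 to 109 against 5 to 10 counts. Il23r passed the count filter only through the vehicle libraries, the group where it was higher. The size of the fall rests on the 5 to 10 counts of the S1P libraries. Vehicle library 3 was far above the other 3 vehicle libraries, and all S1P libraries were below the lowest of them. The fall was 6.63-fold (log2 fold change -2.73, SE 0.51, edgeR adjusted p = 0.0116), and without vehicle library 3 the log2 fold change was -2.10 (edgeR adjusted p = 0.0094). The other parts of the IL-23 system were near the detection limit. Il12rb1, the chain Il23r needs for signalling, had at most 1 count in any library. Il23a and Il12b, the subunits of IL-23, had at most 8 and 17 counts, each highest in vehicle library 3, and Il12b was at 0.710, 0.297, 1.26 and 0.0726 CPM in vehicle and 0.144 to 0.220 CPM after S1P.

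In the IL-17 family, Il17ra fell and its partner chains did not pass. Il17ra, the chain that all well-studied IL-17 receptors share (chromosome 6, 120413015 to 120433945), was at 50.04, 44.6, 57.7 and 55.8 CPM in vehicle and at 42.0, 32.9, 38.2 and 31.0 CPM after S1P. The highest S1P value came within 3 CPM of the lowest vehicle value, without overlap. The fall was 1.44-fold (log2 fold change -0.53, SE 0.14, edgeR adjusted p = 0.0442), and the call remained only without vehicle library 2 or 4 or S1P library 5 (edgeR adjusted p of 0.0648 to 0.150 in the other 5 fits that left out a library). With all 8 libraries and no count filter the call was lost too (edgeR adjusted p = 0.0603). Il17rc, the partner used for IL-17A and IL-17F, was at 16.3, 14.6, 14.9 and 36.6 CPM in vehicle and 16.1, 16.8, 12.5 and 15.1 CPM after S1P. Only vehicle library 4 stood apart, and without it the log2 fold change of -0.44 became -0.01. Il17rd, which encodes a membrane protein that also restrains FGF signalling, was at 70.6, 52.4, 33.0 and 42.0 CPM in vehicle and 40.8, 62.7, 49.4 and 63.9 CPM in S1P libraries, fully overlapping (edgeR adjusted p = 0.759).

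The ligand Il17d was at 4.76, 6.23, 6.51 and 12.8 CPM in vehicle and 2.81, 3.41, 2.86 and 4.74 CPM after S1P. Its groups met but did not cross, and the log2 fold change of -1.13 (SE 0.34) missed the threshold (edgeR adjusted p = 0.0712). It was -0.75 without vehicle library 4 (edgeR adjusted p = 0.0626), and DESeq2 called it (adjusted p = 0.0166). EdgeR with 1 surrogate variable called Il17d too (adjusted p = 0.0277), while limma-voom did not (adjusted p = 0.0885). Il17f, Il17rb and Il17re had at most 2 counts in any library.

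Il16 was the ligand called lower. It encodes a precursor that is cut to release a lymphocyte attractant (chromosome 7, 90791158 to 90894436). Its level was 5.25, 4.23, 6.51 and 5.30 CPM in vehicle and 2.45, 2.76, 3.23 and 1.72 CPM in S1P libraries. The lowest vehicle library was still 1 CPM above the highest S1P library. The fall was 2.09-fold (log2 fold change -1.06, SE 0.25, edgeR adjusted p = 0.0330), and the call held only without vehicle library 2 or 4 among the fits that left out a library (edgeR adjusted p of 0.0528 to 0.098 in the other 6). The span of Il16 shares 10680 bases with Stard5, which averaged 42.9 CPM and had a log2 fold change of -0.02.

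**Figure D3:**
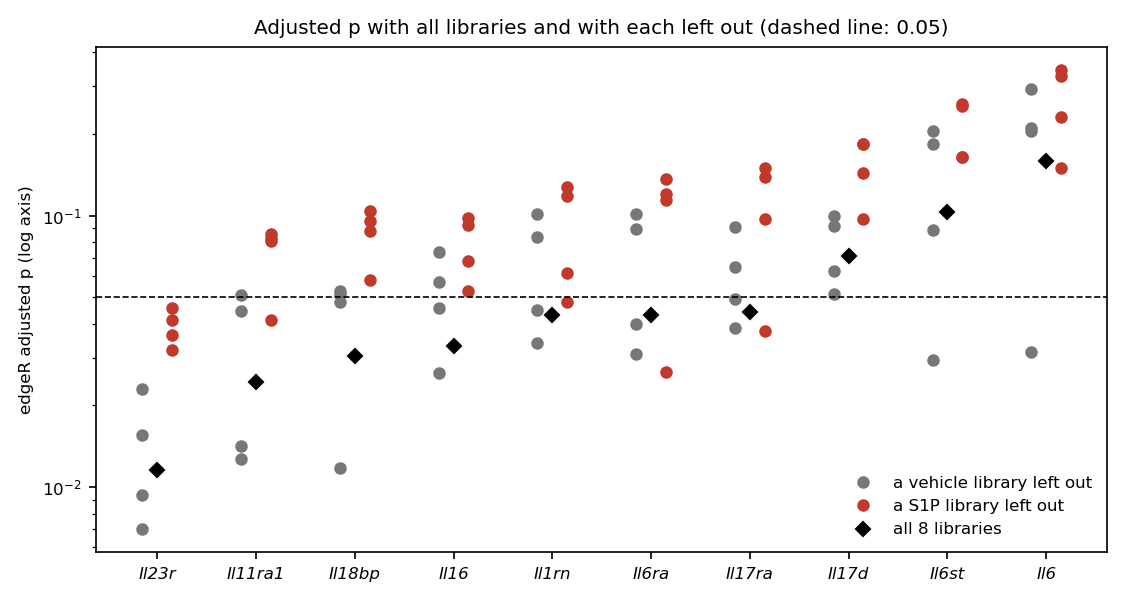
EdgeR adjusted p (log axis) of the 7 called members and of Il17d, Il6st and Il6, with all 8 libraries (diamonds) and with a vehicle (grey) or S1P (red) library left out, and a dashed line at 0.05. Every point of Il23r is under the line, and the other 6 called members have points on both sides of it.

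None of the IL-1 family receptor chains was called. Il1r1, the signalling IL-1 receptor, was at 149, 172, 251 and 127 CPM in vehicle and 126, 85.6, 167 and 116 CPM after S1P, with overlap (log2 fold change -0.50, SE 0.25, edgeR adjusted p = 0.246). Il1rap, the shared accessory chain, was at 66.6, 55.8, 97.4 and 46.4 CPM in vehicle and 88.9, 58.2, 87.9 and 62.6 CPM after S1P (edgeR adjusted p = 0.699). Il1rl1, the IL-33 receptor ST2, ranged from 45.7 to 213 CPM in vehicle (45.7, 128, 213 and 71.3) and was at 101, 112, 162 and 111 CPM in S1P libraries, which lay wholly inside the vehicle range, and it shares 264 bases with Il18r1. For these 3 genes vehicle library 3 was the highest vehicle value.

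The IL-33 gene Il33, an alarm signal kept in the nucleus, was at 1.28, 2.22, 3.92 and 1.74 CPM in vehicle and 0.938, 0.726, 1.83 and 0.646 CPM after S1P. The groups overlapped and the log2 fold change of -1.14 (SE 0.45) did not pass (edgeR adjusted p = 0.159). The IL-36 receptor Il1rl2 and the IL-18 receptor accessory chain Il18rap had positive log2 fold changes of 0.46 and 0.74, neither called. Il18rap was at 0.639, 0.815, 1.70 and 0.653 CPM in vehicle and 1.80, 1.02, 1.91 and 1.65 CPM after S1P, whereas Il18r1, the chain that binds IL-18, had at most 2 counts in vehicle libraries and 0 in every S1P library. The IL-36 ligands Il1f6 and Il1f9 were not tested, with at most 19 and 26 counts. Il1a, Il1f8 and Il1f10 had at most 2 counts, and the decoy receptor Il1r2 had 0 to 9 counts in vehicle and 1 in each S1P library.

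The IL-4 and IL-13 receptor chains had no call. Il4ra was at 29.1, 38.9, 46.9 and 73.4 CPM in vehicle and 35.9, 42.7, 48.5 and 38.1 CPM after S1P, a log2 fold change of -0.19 that became 0.11 without vehicle library 4. Il13ra1, its partner in the receptor of non-blood cells, was at 21.6, 78.8, 164 and 51.7 CPM in vehicle and 24.7, 62.8, 133 and 94.7 CPM in S1P libraries. The group means were nearly equal, at 79.0 and 78.8 CPM, and the log2 fold change was 0.00 with an SE of 0.61. Leaving out a library moved it between -0.38 and 0.64. Il13ra2, a decoy that binds IL-13, was at 1.42, 2.00, 4.14 and 0.363 CPM in vehicle and 1.15, 0.290, 0.807 and 0.287 CPM after S1P. It overlapped between groups (log2 fold change -1.63, SE 0.70, edgeR adjusted p = 0.188) and was called without vehicle library 4 (edgeR adjusted p = 0.0445).

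Il3ra, the IL-3-binding chain, rested on 1 library. It was at 2.27, 1.85, 1.70 and 23.4 CPM in vehicle and 2.31, 0.872, 1.61 and 0.861 CPM after S1P. The log2 fold change of -2.36 (SE 0.92, edgeR adjusted p = 0.151) became -0.46 without vehicle library 4. This library also stood highest among vehicle libraries for Il17rc, Il17d and Il4ra. The 5 tested members with the highest transcript GC content, Il11ra1 (54.7%), Il4ra, Il17d, Il3ra and Il17rc, were 0.49 to 3.30 log2 units higher in vehicle library 4 than in the mean of the other vehicle libraries. Among the 5 with the lowest GC content, Il13ra2, Il6 and Il13ra1 differed from it by -1.70, -1.72 and -0.34 log2 units, while Il7 and Il1rn were higher by 0.39 and 0.38. Il23r, tied with Il1rn in GC content as rounded (41.6%), differed by -0.78 log2 units. Across the 28 tested members this difference correlated with GC at r = 0.72, and across 11634 tested genes at r = 0.76, where the points share their libraries. What part this had in any result was not tested.

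**Figure D4:**
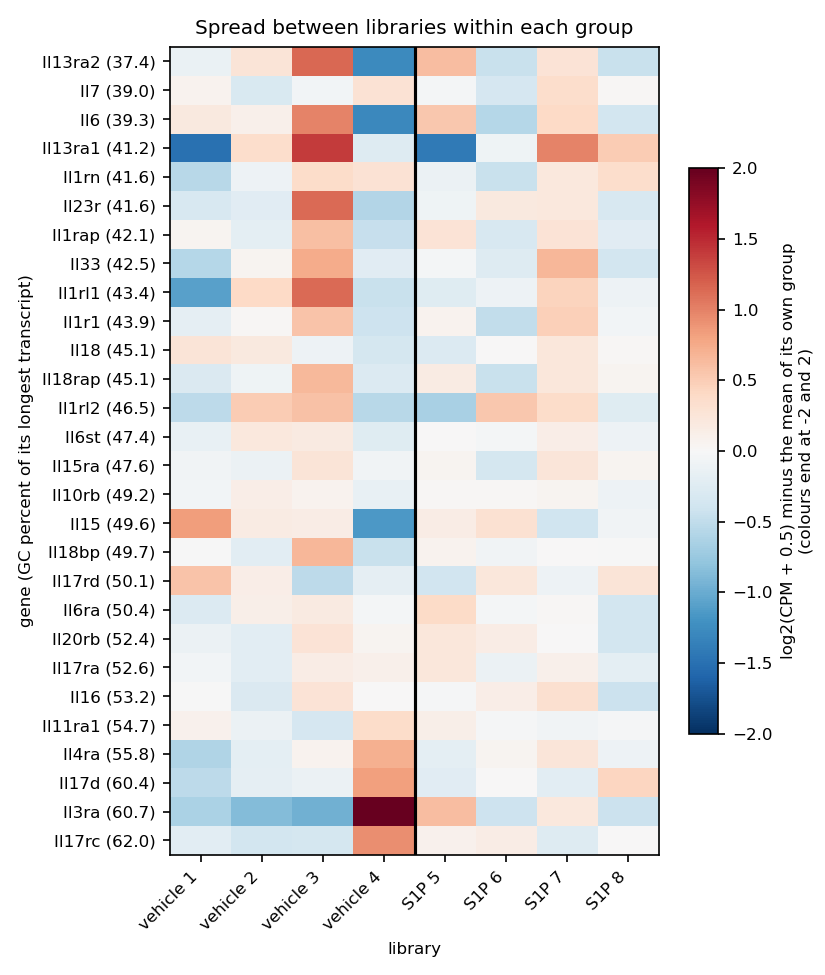
Deviation of each library from the mean of its own group, log2(CPM + 0.5), for the 28 tested members ordered by GC content of the longest transcript. Vehicle 4 is below its group in Il13ra2 and Il6 near the low-GC top and above it in the 5 genes at the bottom, and Il13ra1 is low in vehicle 1 and S1P 5 and high in vehicle 3 and S1P 7.

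The remaining tested members did not pass and overlapped between groups. Il10rb, a chain shared by the receptors of IL-10 and IL-22, was steady at 56.6, 64.9, 62.3 and 52.9 CPM in vehicle and 58.7, 58.3, 59.4 and 53.5 CPM after S1P (log2 fold change -0.04, SE 0.10, edgeR adjusted p = 0.826). Il15ra, which presents IL-15 to other cells, was at 5.32, 5.19, 6.80 and 5.37 CPM in vehicle and 5.05, 3.70, 5.87 and 5.10 CPM after S1P (edgeR adjusted p = 0.576). Il15 and Il7, cytokines that sustain lymphocytes, averaged 1.63 and 0.873 CPM in vehicle and 1.94 and 1.07 CPM after S1P, and Il7 overlaps the tested gene Gm16685. Il20rb, a chain of the IL-20 and IL-24 receptors, averaged 1.90 and 1.56 CPM.

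Of the 29 members that were not tested, 22 had fewer than 10 counts in every library, 16 of them never more than 3. These include Il5, Il12a, Il12rb2, Il19, Il20ra, Il21, Il27ra and Il28ra (now Ifnlr1, an interferon lambda receptor), with at most 5 counts, and Il4i1. The other 7 were Il12b, Il1f6, Il1f9, Il34, Il1rapl1, Il2rb and Il2rg. Il2rb, a signalling chain of the IL-2 and IL-15 receptors, was at 1.06, 1.26, 0.518 and 0.581 CPM in vehicle and 0.0721, 0.145, 0.367 and 0.431 CPM in S1P libraries, without overlap. Il2rg, the common gamma chain, was at 0.445 to 1.85 CPM in vehicle and 0.288 to 0.734 CPM after S1P, with the highest value again in vehicle library 3. Il34, a ligand of the CSF1 receptor, was at 0.0739 to 0.290 CPM in vehicle and 0.287 to 0.726 CPM after S1P.

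Per kilobase of exon (GENCODE M21 lengths), Il6st, Il6 and Il1rn led the members, at means of 125, 114 and 101 CPM per kb in vehicle. Their vehicle ranges overlapped, so this order is not resolved. After S1P the means were 93.7, 53.5 and 192 CPM per kb, and Il1rn was highest in every S1P library, at 138 to 241 CPM per kb against at most 103 for Il6st. Il1r1, Il13ra1 and Il1rl1 followed in vehicle, at 27.4, 21.3 and 16.6 CPM per kb, with overlapping ranges, and after S1P they were at 19.4, 21.2 and 17.7 CPM per kb, again overlapping. Il10rb was at 15.5 and 15.1 CPM per kb. Il7 and Il18rap were lowest among the tested members in vehicle, at 0.154 and 0.141 CPM per kb. After S1P they were at 0.189 and 0.236 CPM per kb, and Il23r was at 0.234 CPM per kb.

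**Figure D5:**
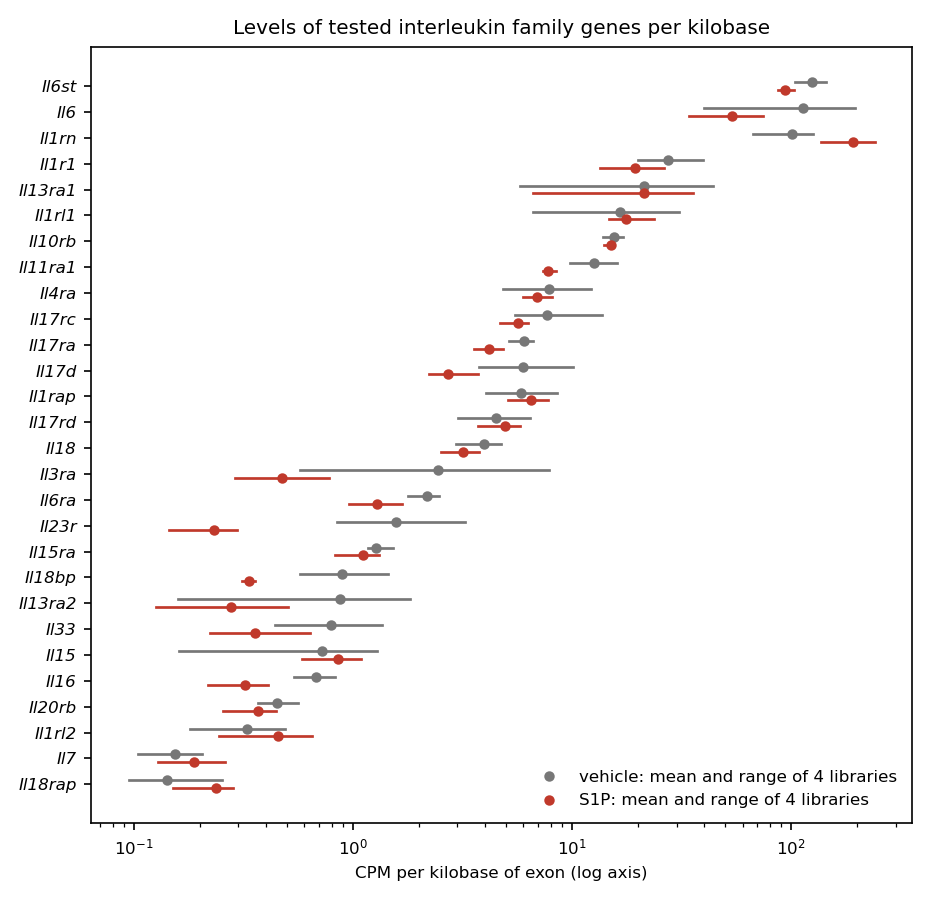
Mean (points) and range over 4 libraries (lines) of the 28 tested members in CPM per kilobase of exon (log axis), vehicle in grey and S1P in red, ordered by the vehicle mean. Il6st, Il6 and Il1rn sit at the top, and Il1rn is the highest after S1P.

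Other genes of interleukin signalling were counted in 6 lists: partner chains, JAKs and STATs, SOCS and other feedback genes, IL-1 adaptors, IL-17 adaptors, and processing enzymes of the IL-1 family. Of 62 tested genes in these lists, 2 were called lower and 0 higher by edgeR, or 3.23% lower, against 2.90% of all tested genes. The number called lower was 6 with DESeq2, 4 with limma-voom and 7 without vehicle library 4. It was 1 with no count filter and 1 without vehicle library 1 or 2 or S1P library 6, 7 or 8. Over all tested genes, 344 were called lower by edgeR, 804 by DESeq2, 340 by limma-voom and 723 without vehicle library 4. Without S1P library 6, 7 or 8 the all-gene number was 101, 151 and 108. Before adjustment, 16 of the 62 signalling genes were lower, where 11.7% of all tested genes were, and 3 higher with an edgeR p under 0.05. DESeq2 and limma-voom each called 1 higher, Socs5, a feedback gene named here after its values were seen. The median log2 fold change was -0.28. Irak3, a kinase-like protein that restrains IL-1 receptor signalling, fell 2.55-fold, from 59.5, 96.6, 115 and 71.2 CPM in vehicle to 30.9, 32.5, 40.1 and 30.8 CPM after S1P. These groups did not overlap (log2 fold change -1.35, SE 0.21, edgeR adjusted p = 0.00572), and the call held whichever library was left out. Traf5, an adaptor used by IL-17 receptors, fell 1.68-fold, from 8.00 ± 0.276 to 4.76 ± 0.887 CPM (SD, n = 4 each; edgeR adjusted p = 0.0405), with a call only without vehicle library 4 or S1P library 5 among the fits that left out a library (edgeR adjusted p of 0.0615 to 0.144 in the others).

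None of 10 tested JAK and STAT genes was called by edgeR, while 5 were lower with a p under 0.05 before adjustment. Stat3, the main target of gp130, was at 369 ± 54.3 CPM in vehicle and 270.2 ± 29.6 CPM after S1P (edgeR adjusted p = 0.0729). It passed with DESeq2 (adjusted p = 0.0136) and not with limma-voom. Jak1 was at 327 ± 46.2 and 341 ± 19.9 CPM (SD, n = 4 each). Of the gp130 partner chains, Osmr was at 491 ± 155 and 379.8 ± 64.2 CPM and Lifr at 147 ± 39.9 and 104 ± 21.8 CPM (SD, n = 4 each), neither called (edgeR adjusted p = 0.320 and 0.198). None of 13 feedback genes was called, and the most abundant, Ptpn11 and Socs4, had log2 fold changes of 0.11 and 0.14. The median over the 13 was -0.02. Before adjustment, 1 of them was lower with an edgeR p under 0.05, Socs3, at -0.53. In the other direction there was 1, Socs5, at 0.54. In the IL-17 list, Nfkbiz, an IkB protein that helps induce Il6, was at 181 ± 23.8 and 113 ± 31.3 CPM (SD, n = 4 each; edgeR adjusted p = 0.0536). It passed with DESeq2 (adjusted p = 0.00578), limma-voom (adjusted p = 0.0411) and, in edgeR, without vehicle library 4 or S1P library 5 (adjusted p = 0.0323 and 0.0092). Zc3h12a, a nuclease that degrades Il6 mRNA, was at 169.9 ± 78.6 and 99.9 ± 27.4 CPM (edgeR adjusted p = 0.150). The IL-1 adaptor Tab2, the kinase Map3k7 and the processing enzymes Capn2 and Casp4 were not called, with log2 fold changes of 0.01, 0.15, 0.04 and -0.52.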

How the data were processed

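Whole-number counts per Ensembl gene, with symbols and mm9 positions, were deposited by the authors for 8 libraries. STAR 2.5.3a and mm9 are named per the submitters' processing notes. The name of the deposited counts includes the word sense, with no further detail. For the counting tool, annotation, other strand details and nearly equal totals, the entry is: not given in the sources used here. Columns were matched to samples by title.

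In R 4.3.3, edgeR 4.0.16 kept genes by filterByExpr (minimum count 10), scaled them by TMM, and tested all 11844 with its robust quasi-likelihood test, with treatment as the only term. P-values were Benjamini-Hochberg adjusted, with a threshold of 0.05. SE came from the F statistic. The fit was tested on simulated counts. Alternatives were other scalings and filters, DESeq2 1.42.0, limma-voom (limma 3.58.1), 1 surrogate variable (sva 3.50.0) and libraries left out. The members and lists were chosen with earlier results of these data known. Named with values in each library were called members, those with an unadjusted p under 0.05 and those averaging at least 5 CPM. Untested members reaching 10 counts were named, as were, per signalling list, up to 4 called genes or, with fewer than 2 called, any called gene and the 2 most abundant. Exon lengths and GC content came from GENCODE M21 by gene ID, and promoter sequences from RefSeq (GRCm38.p6).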

Additional observations from a re-analysis of the deposited data

Results flagged for a closer look

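Of 84 groups of 4 libraries (the tested members and the named signalling genes), 8 held a library far from the other 3 by Dixon's test, where chance gives about 1 in 20, or 4.20. For Il15ra this was vehicle replicate 3, with 6.80 CPM (others 5.19 to 5.37), as it was for Il18rap with 1.70 CPM (0.639 to 0.815) and Il23r with 8.06 CPM (2.10 to 2.82). Vehicle replicate 4 was high for Il3ra at 23.4 CPM (others 1.70 to 2.27), for Il17rc at 36.6 CPM (14.6 to 16.3) and for Zc3h12a at 288 CPM (127 to 133), and low for Map3k7 at 169 CPM (222 to 232). S1P replicate 5 was high for Nfkbiz at 159 CPM (91.9 to 103). The causes were not tested.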

How the results depend on the processing

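With edgeR over all libraries, 1007 genes were called, 65.8% of them higher. The count was 1771 with DESeq2 (967 higher and 804 lower, 54.6% higher), 2486 with 1 surrogate variable, 2112 with a pair of libraries left out (vehicle replicate 4 with S1P replicate 5), and 434 to 1856 when a single library was left out, lowest without S1P replicate 6 and highest without vehicle replicate 4. Among the members, 0 were called higher with the RLE size factors, 0 to 1 when a library was left out and 1 under each of the other alternatives. The count of members called lower was 1 (without S1P replicate 6, 7 or 8) to 9 (without vehicle replicate 4) when a library was left out, 4 with no filter, and 9 with DESeq2, a surrogate variable or that pair left out. Signalling genes called higher were 1 with DESeq2, 1 with limma-voom, 2 with a surrogate variable and 0 to 1 with a library left out. Those called lower were 4 with RLE factors, 1 with no filter, 6 with DESeq2, 4 with limma-voom, 9 with a surrogate variable, 11 without that pair and 1 to 7 with a library left out. Of 575 values of the 36 named genes under all alternatives, 511 kept their side of the threshold, 41 lost a call and 23 gained one, and no called gene turned its direction. The causes were not tested beyond the smaller number of libraries. No paired analysis was possible because the labels number the vehicle libraries 1 to 4 and the S1P libraries 5 to 8, with no number shared and no other pairing named.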

Other observations

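Il1rapl1, a receptor-like gene known from synapses, was at 6.03 CPM in vehicle replicate 1 and 2.81 CPM in S1P replicate 5, and at most 0.291 CPM in each of the other 6 libraries. Il1f9, an IL-36 ligand, was likewise highest in these libraries, at 1.85 and 1.37 CPM, against at most 0.813 CPM elsewhere. Il13ra1 was lowest in the same libraries, at 21.6 and 24.7 CPM, and highest in vehicle replicate 3 and S1P replicate 7, at 164 and 133 CPM. Across 11844 tested genes, which are not independent replicates, the deviation from the group mean of vehicle replicate 1 correlated with that of S1P replicate 5 at r = 0.53, and that of vehicle replicate 3 with that of S1P replicate 7 at r = 0.58. The other 14 combinations ran from -0.38 to 0.30. Over the 28 tested members the corresponding values were 0.47 and 0.61. The labels give no batch, culture or pairing for these libraries.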
